A study of Mus musculus with 12 samples.

Results

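The presynaptic active zone is the patch of nerve terminal membrane at which synaptic vesicles dock, are primed and fuse, and its scaffold is built from a few families of large proteins. Transcripts of 10 genes of these families were followed across 12 RNA-seq libraries of mouse cortical neurons: the RIM genes Rims1 and Rims2, Bassoon (Bsn) and Piccolo (Pclo), the ELKS/CAST genes Erc1 and Erc2, the Munc13 genes Unc13a, Unc13b and Unc13c, and the liprin gene Ppfia2. They were chosen by gene symbol from a table of 23893 genes, with earlier results of these data known, and all 10 were found in it. The cultures came from mouse embryos of day 13.5 to 15.5, strain C57BL6, and in the study's description every culture carried a floxed Top1 gene (Top1 fl/fl) on both chromosomes, although the labels give the control genotype as wild-type. Top1 encodes DNA topoisomerase I, the enzyme that relaxes the supercoils formed during transcription. At 3 days in vitro, cultures received lentivirus with tdTomato alone (WT) or tdTomato-P2A-CRE (Top1 cKO), in both cases under the neuronal CaMKIIα promoter, with about 85 to 90% of cells transduced, so that a share of cells kept Top1. At 15 days in vitro they received vehicle (0.003% DMSO) or 300 nM topotecan, a TOP1 inhibitor, and were harvested 3 days later. This gave 4 groups of 3 libraries: WT with vehicle (WT-Veh) or with topotecan (WT-Topot), and Top1 cKO with vehicle (Top1 cKO-Veh) or with topotecan (Top1 cKO-Topot). The study asked how the loss of Top1 compares with its inhibition, and whether topotecan still acts on transcripts where Top1 has been deleted.

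RIM proteins bind the vesicle GTPase Rab3, calcium channels and Munc13, and so bring vesicles and channels together. Munc13 proteins prime docked vesicles for fusion, while Bassoon and Piccolo are very large proteins that span the space around the vesicle cluster. The ELKS/CAST proteins and the liprins are coiled-coil adaptors that hold these components to one another.

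Each library held 1730164 to 4583777 counts, and levels are given in CPM, the share of the library's counts with the library size scaled by edgeR's TMM factors. Top1 stood at 117 to 163 CPM in the 6 libraries that received tdTomato alone and at 27.1 to 44.0 CPM in the 6 that received CRE, without overlap; a transcript lacking the floxed exon would still be counted. The Top1 log2 fold change in Top1 cKO-Veh relative to WT-Veh was -1.98 ± 0.23, with an adjusted p of 0.00119 in the quasi-likelihood test of edgeR, adjusted by Benjamini-Hochberg, which gives every adjusted p below. It was 0.0143 after a filter on low counts and 0.0104 without WT-Veh replicate 2. All 8 neuronal markers checked reached a mean of 1 CPM, and so did all 6 astrocyte markers, 6 of 7 of the oligodendrocyte lineage (Mag was at 0 in every library), 2 of 6 of microglia and 0 of 5 of endothelial cells. The summed level of the astrocyte markers was 937 to 2756 CPM in WT-Veh and 314 to 663 CPM in WT-Topot, and with the deletion 871 to 2999 CPM under vehicle and 309 to 1007 CPM under topotecan. It was thus lower in every WT-Topot library than in any WT-Veh library, and the part of this shift in the changes below was not tested. The neuronal markers summed to 6662 to 8459 CPM in WT-Veh and 7069 to 7530 CPM in WT-Topot, which overlap. Between these groups 1 of the 8 neuronal and 2 of the 6 astrocyte markers were called lower in WT-Topot and none higher, where 2.04% of all genes were called lower. Relative to Top1 cKO-Veh, WT-Topot had 2 neuronal and 2 astrocyte markers called lower and none higher, where 1.23% of all genes were called lower. Top1 cKO-Topot relative to WT-Topot had 2 neuronal markers called higher and 1 lower, and no astrocyte marker called. In that comparison 1.46% of all genes were called higher and 1.03% lower. The 3 markers of inhibitory neurons summed to 440.0 to 674 CPM in WT-Topot and 671 to 1478 CPM in WT-Veh, and with the deletion to 877 to 1121 CPM under vehicle and 748 to 1103 CPM under topotecan. WT-Topot thus lay below both deletion groups without overlap and overlapped WT-Veh, and 1 of the 3 markers was called in each of the comparisons of WT-Topot with a deletion group. The part of this difference in the scaffold values of those comparisons was not tested. In such bulk cultures, fewer cells of a type and less RNA per cell cannot be told apart.

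Topotecan in WT cells lowered 4 of the 10 scaffold transcripts. Rims1, Pclo, Erc2 and Ppfia2 fell 3.84- to 6.28-fold in WT-Topot relative to WT-Veh, whereas Erc1, the closest relative of Erc2, had a log2 fold change of 0.025 ± 0.18. The 4 passed a false discovery rate (FDR) of 0.01 and none rose, where 2.04% of all 23893 genes were called lower and 0.682% higher. Libraries with the same replicate number deviated together, and with that number as a block in the fit 7 of 10 were called lower, where 5.0% of all genes were: Rims2, Bsn and Unc13a joined the list. The median log2 fold change of the 10 was -1.001, beside 0 over all genes. Every WT-Topot library lay below every WT-Veh library for 7 of the 10 genes, as it did for 13.2% of the 13720 genes that averaged 1 CPM or more. Among these, the share was 74.9% for genes that span over 300 kb and 8.55% for those of up to 100 kb.

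With deletion of Top1 alone, the median log2 fold change of the 10 genes was -0.48. In Top1 cKO-Veh relative to WT-Veh, 0 of 10 were called without the block by edgeR, where 0.126% of all genes were called lower, although 3 were lower at an unadjusted p under 0.05 (4.82% of all genes). DESeq2 called 1 (Ppfia2; 1.4% of the genes it adjusted), and edgeR with the block called 5 (Rims1, Rims2, Bsn, Pclo and Ppfia2), where 2.95% of all genes were called lower. The libraries of the 2 groups were apart for Rims1, Rims2 and Ppfia2, all lower in Top1 cKO-Veh, where 10.3% of genes averaging 1 CPM or more were. Of such genes that span over 300 kb, as these 3 do, 33.0% were.

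**Figure D1:**
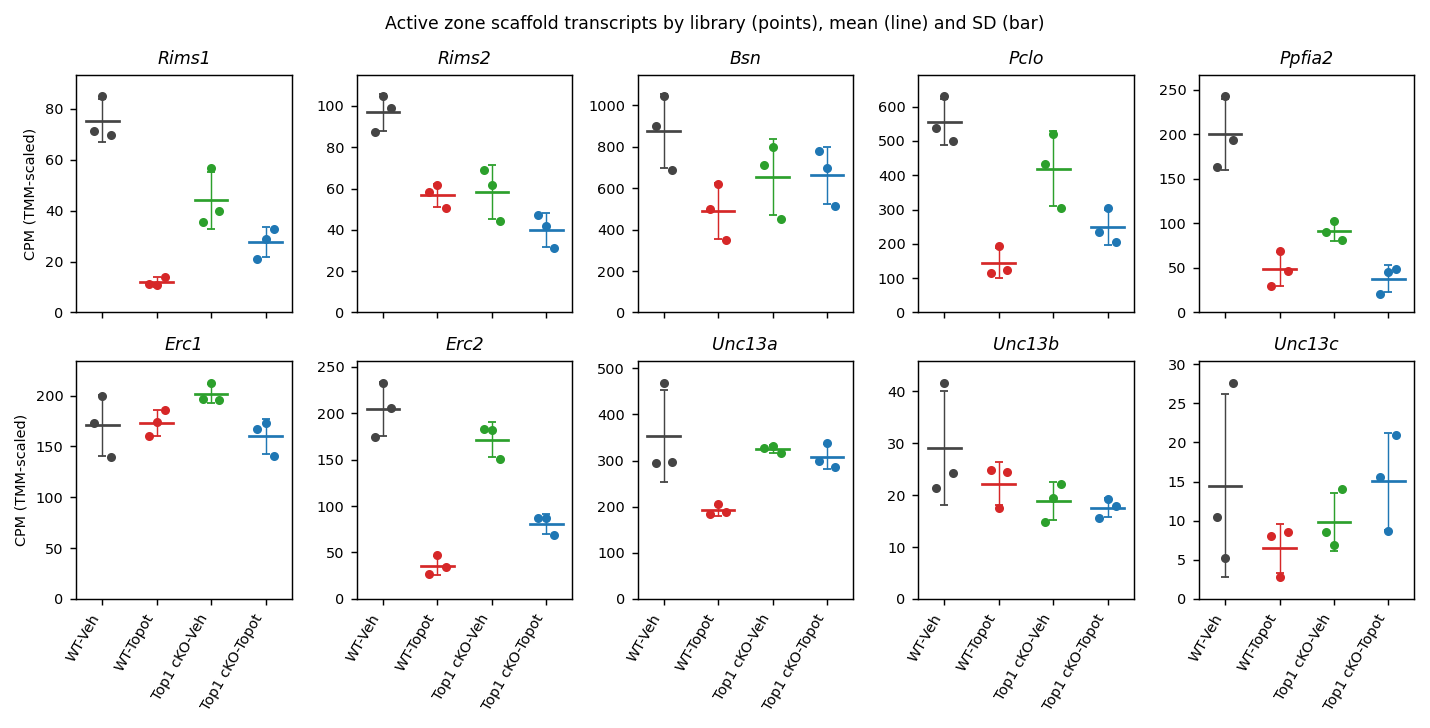
Level of each scaffold transcript in every library, in CPM scaled by TMM, on linear axes that start at 0 (points: libraries; line: mean; bar: SD of 3 libraries). Rims1, Pclo, Erc2 and Ppfia2 drop in WT-Topot to 16.0 to 26.0% of their WT-Veh mean, while Erc1 lies at 101.5%.

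Most of the 10 genes are long. On the NCBIM37 assembly (mm9) with GENCODE vM1 gene models, 6 span more than 300 kb and only Unc13a (45.0 kb) and Bsn (94.4 kb) span up to 100 kb. The exons of these models, merged over all transcripts of a gene, add up to 5.40 to 20.4 kb. Reads were counted over RefSeq exons, which can differ from these. The Bsn exons share 1813 bases with the lincRNA F630040L22Rik on the other strand, and those of Ppfia2 share 227 bases with C230021G24Rik, so these 2 genes could hold reads of a neighbour if the counting did not use strand. The sequences before the transcription start are printed for the 4 genes that fell and for Erc1, since they are the called genes and the one whose log2 fold change was nearest 0. RefSeq gives promoters for 9 of the 10 genes on GRCm38.p6 (Rims2 had no entry). Printed are the 250 bases before the start, 5′ to 3′ on the gene's strand, with GC boxes (GGGCGG or its reverse complement CCGCCC, on both strands) in capitals.
Rims1, chr1:22806159-22806408, minus strand: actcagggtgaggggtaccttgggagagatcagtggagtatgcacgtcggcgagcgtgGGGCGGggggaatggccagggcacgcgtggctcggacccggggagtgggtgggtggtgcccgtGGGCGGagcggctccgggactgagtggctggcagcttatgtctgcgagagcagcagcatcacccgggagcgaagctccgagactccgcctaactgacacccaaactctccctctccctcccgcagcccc
Pclo, chr5:14514668-14514917, plus strand: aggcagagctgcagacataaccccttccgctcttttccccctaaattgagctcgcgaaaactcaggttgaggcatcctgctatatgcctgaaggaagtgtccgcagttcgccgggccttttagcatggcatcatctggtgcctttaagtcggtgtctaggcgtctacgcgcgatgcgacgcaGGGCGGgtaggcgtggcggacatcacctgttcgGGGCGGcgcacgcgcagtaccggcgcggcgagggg
Erc1, chr6:119848151-119848400, minus strand: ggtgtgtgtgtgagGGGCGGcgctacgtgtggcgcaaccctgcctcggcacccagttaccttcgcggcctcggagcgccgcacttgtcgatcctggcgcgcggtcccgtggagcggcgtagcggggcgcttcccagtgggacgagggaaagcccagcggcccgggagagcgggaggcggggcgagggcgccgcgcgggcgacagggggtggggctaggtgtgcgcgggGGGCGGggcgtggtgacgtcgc
Erc2, chr14:27622157-27622406, plus strand: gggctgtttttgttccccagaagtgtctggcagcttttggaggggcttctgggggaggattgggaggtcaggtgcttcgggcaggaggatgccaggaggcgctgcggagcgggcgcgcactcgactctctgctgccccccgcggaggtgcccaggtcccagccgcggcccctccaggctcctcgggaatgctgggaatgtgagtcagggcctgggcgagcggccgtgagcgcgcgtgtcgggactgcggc
Ppfia2, chr10:106470060-106470309, plus strand: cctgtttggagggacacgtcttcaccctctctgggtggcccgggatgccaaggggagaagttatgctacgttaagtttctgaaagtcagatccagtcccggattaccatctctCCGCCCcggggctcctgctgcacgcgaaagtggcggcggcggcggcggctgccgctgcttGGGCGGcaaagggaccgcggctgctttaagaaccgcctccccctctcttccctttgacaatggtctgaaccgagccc
Of the 9 promoters, 7 held at least 1 GC box, as did 32.7% of the 32851 mouse promoters in the same table. No GC box stood in the Erc2 or Bsn window, and 2 stood in each of those of Rims1, Pclo, Erc1 and Ppfia2. None of the 9 held the TATA box letters TATAAA (12.4% of all promoters did) or the full cAMP response element TGACGTCA (1.55% did). The windows carried 6 (Unc13c) to 36 (Erc1) CpG dinucleotides, where the median promoter carried 6. The related Erc1 and Erc2 had 76% and 69.6% G and C in this window. The 9 windows held 58 to 76%, where the median of all promoters was 52.4%. The part of base composition in the share with a GC box was not tested.

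Levels per kilobase were taken on the merged GENCODE exons, not on the RefSeq exons counted, whose lengths were not used. In WT-Veh cells the order of the transcripts per kilobase of exon was led by Bsn, at 55.0 ± 11.2 CPM per kb (SD, n = 3). Unc13a followed with 41.3 ± 11.6, Erc2 with 31.8 ± 4.53, Pclo with 27.2 ± 3.29 and Ppfia2 with 25.04 ± 4.98 CPM per kb. Rims2 at 18.0 ± 1.66, Erc1 at 17.6 ± 3.07 and Rims1 at 10.4 ± 1.16 CPM per kb came next. Unc13c and Unc13b closed the list at 2.18 ± 1.76 and 2.15 ± 0.813 CPM per kb. The gaps between Unc13a and Erc2, between Pclo and Ppfia2, between Rims2 and Erc1 and between Unc13c and Unc13b were smaller than the larger SD of the pair.

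The RIM genes are the hubs of the scaffold. Rims1 (chr1:22276332-22911673, minus strand, 635 kb) stood at 71.4, 85.0 and 69.7 CPM in the WT-Veh libraries and at 11.1, 10.9 and 14.1 CPM in WT-Topot. Top1 cKO-Veh libraries held 35.6, 56.8 and 40.1 CPM, and Top1 cKO-Topot libraries 21.1, 28.9 and 32.8 CPM. The 4 groups did not overlap, and WT-Topot was the lowest, at 16.0% of the WT-Veh mean, below Top1 cKO-Topot at 36.6% and Top1 cKO-Veh at 58.6%. Topotecan in WT cells changed Rims1 by -2.65 ± 0.24 on the log2 scale, with an adjusted p of 7.4e-07. The change in Top1 cKO-Veh relative to WT-Veh was -0.76 ± 0.23, with an adjusted p of 0.184 and of 7.41e-05 with the block. Topotecan in Top1 cKO cells gave -0.68 ± 0.25, with an adjusted p of 0.88 and of 0.00517 with the block.

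Rims2, the second RIM gene (chr15:39029878-39513486, plus strand, 484 kb), was at 87.2, 105 and 99.1 CPM in WT-Veh and at 58.3, 61.5 and 50.5 CPM in WT-Topot. With the deletion it was at 69.2, 61.8 and 44.1 CPM under vehicle and 47.0, 41.8 and 31.0 CPM under topotecan. The WT-Veh libraries were above all others, and WT-Topot and Top1 cKO-Veh overlapped at 58.6 and 60.2% of the WT-Veh mean. The log2 fold change with topotecan in WT cells was -0.76 ± 0.19, with an adjusted p of 0.0235 and of 7.31e-05 with the block. Deletion gave -0.72 ± 0.21, with an adjusted p of 0.181 and of 7.68e-05 with the block. Between WT-Topot and Top1 cKO-Veh the log2 fold change of Rims2 was -0.046 ± 0.21, whereas that of Rims1 was -1.90 ± 0.26 with an adjusted p of 4.15e-04. With deletion and topotecan together, Rims2 fell to 41.2% of its WT-Veh mean (-1.25 ± 0.22, adjusted p 0.00147); without Top1 cKO-Topot replicate 2 the adjusted p was 0.0108.

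Bassoon and Piccolo are related giant proteins that organise the vesicle cluster. Bsn (chr9:107998354-108092715, minus strand, 94.4 kb) was at 898, 1044 and 688 CPM in WT-Veh and 498, 621 and 349 CPM in WT-Topot. The deletion groups showed 713, 799 and 449 CPM (vehicle) and 779, 697 and 512 CPM (topotecan). In every group replicate 3 was the lowest, and each pair of groups next to each other in level overlapped. Within each replicate number, WT-Topot lay below WT-Veh by 0.75 to 0.98 on the log2 scale. The fitted change was -0.84 ± 0.20, with an adjusted p of 0.0168 and of 1.08e-11 with the block. Deletion gave -0.42 ± 0.21, with an adjusted p of 0.623 and of 2.07e-04 with the block. In Top1 cKO cells the log2 fold change of Bsn with topotecan was 0.029 ± 0.20, with an adjusted p of 1.

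Pclo (chr5:14514918-14863457, plus strand, 349 kb) was at 538, 631 and 499.9 CPM in WT-Veh and 116, 195 and 122 CPM in WT-Topot. Under deletion its levels were 432, 521 and 305 CPM with vehicle and 234, 306 and 206 CPM with topotecan. All WT-Topot libraries were the lowest, while Top1 cKO-Veh overlapped both WT-Veh and Top1 cKO-Topot. Topotecan in WT cells changed Pclo by -1.94 ± 0.20, with an adjusted p of 4.27e-06. Deletion gave -0.41 ± 0.20, with an adjusted p of 0.595 and of 0.00107 with the block. In Top1 cKO cells topotecan gave -0.75 ± 0.20, with an adjusted p of 0.357 and of 1.09e-12 with the block. The level with both was 44.7% of the WT-Veh mean, a fall of 2.20-fold with an adjusted p of 7.08e-04.

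Erc1 and Erc2 encode ELKS and CAST, which bind RIM, Bassoon, Piccolo and liprins. Erc2 (chr14:28435614-29291721, plus strand, 856 kb), the longest of the 10 genes, was at 175, 233 and 206 CPM in WT-Veh and 26.5, 46.9 and 34.3 CPM in WT-Topot. The deletion groups showed 183, 181 and 150.3 CPM (vehicle) and 87.6, 87.0 and 68.6 CPM (topotecan). The vehicle groups overlapped at the top, Top1 cKO-Topot lay in between and WT-Topot at the bottom, with no overlap among these levels. Erc2 changed by -2.50 ± 0.22 with topotecan in WT cells, with an adjusted p of 7.4e-07. With deletion alone the log2 fold change was -0.25 ± 0.18, with an adjusted p of 0.893 and of 0.302 with the block. Topotecan in Top1 cKO cells gave -1.07 ± 0.18, with an adjusted p of 0.0382 and of 2.36e-15 with the block.

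Erc1 (chr6:119520822-119798168, minus strand, 277 kb), which is expressed in many tissues, was at 173, 199 and 140.0 CPM in WT-Veh and 160.2, 174 and 185 CPM in WT-Topot. Top1 cKO-Veh libraries held 197, 213 and 196 CPM, and Top1 cKO-Topot libraries 167, 173 and 140.3 CPM. Its group means lay within 93.7 to 118% of WT-Veh, and no comparison called it with or without the block. The unadjusted p of Erc1 for topotecan in WT cells was 0.895, and its 3 differences within a replicate number were -0.11, -0.19 and 0.40 on the log2 scale.

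The Munc13 genes encode the vesicle priming factors. Unc13a (chr8:74150614-74195656, minus strand, 45.0 kb), the main form in forebrain excitatory neurons, was at 295, 469 and 298 CPM in WT-Veh and 184, 206 and 188 CPM in WT-Topot. With the deletion it was at 328, 332 and 316 CPM under vehicle and 299, 338 and 286 CPM under topotecan. WT-Topot was below all 9 other libraries, and the other groups overlapped. The log2 fold change in WT-Topot was -0.88 ± 0.20, with an adjusted p of 0.0101 and of 1.29e-08 with the block. Deletion gave -0.12 ± 0.19, and topotecan in Top1 cKO cells -0.067 ± 0.15, with adjusted p values of 1 and 1. Relative to Top1 cKO-Veh, Unc13a was 1.69-fold lower in WT-Topot, with an adjusted p of 0.00825 that reached 0.0118 to 0.0465 in 5 of the 6 fits that left out 1 library.

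Unc13b (chr4:43071825-43277745, plus strand, 206 kb) was at 21.4, 41.6 and 24.2 CPM in WT-Veh and 24.8, 17.5 and 24.4 CPM in WT-Topot. Top1 cKO-Veh libraries held 14.9, 19.5 and 22.0 CPM, and Top1 cKO-Topot libraries 15.5, 19.3 and 17.9 CPM. Its highest value was that of WT-Veh replicate 2, and no comparison called it. Unc13c (chr9:73328677-73781374, minus strand, 453 kb), known best from the cerebellum, was at 10.5, 5.26 and 27.6 CPM in WT-Veh and 8.04, 2.86 and 8.56 CPM in WT-Topot. With the deletion it was at 8.60, 6.87 and 14.0 CPM under vehicle and 15.5, 8.63 and 21.0 CPM under topotecan. In every group replicate 2 was the lowest and replicate 3 the highest. The fitted change in WT-Topot was -1.13 ± 0.51, with an adjusted p of 0.334. It rested on WT-Veh replicate 3, without which the log2 fold change of Unc13c was -0.33. The same library moved its other comparisons with WT-Veh, from -0.55 to 0.25 for deletion alone and from 0.12 to 0.90 for deletion with topotecan, and the interaction from 1.77 to 0.98. Only Top1 cKO-Topot relative to WT-Topot was called for Unc13c, and only with the block (1.22 ± 0.41, adjusted p 0.0965 without and 0.00152 with it).

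Ppfia2 (chr10:105902321-106370502, plus strand, 468 kb) encodes liprin-alpha2, an adaptor between RIM, ELKS and CASK. It was at 164, 243 and 194 CPM in WT-Veh and 30.2, 69.0 and 47.1 CPM in WT-Topot. Under deletion its levels were 90.7, 103 and 81.2 CPM with vehicle and 20.3, 45.2 and 49.0 CPM with topotecan. The WT-Veh, Top1 cKO-Veh and topotecan-treated libraries formed separate ranges, and the 2 topotecan groups overlapped. Ppfia2 changed by -2.03 ± 0.25 with topotecan in WT cells, with an adjusted p of 2.78e-05. Deletion gave -1.12 ± 0.20, the largest log2 fold change of the 10 genes in that comparison, with an adjusted p of 0.0156 and of 1.09e-14 with the block. Topotecan in Top1 cKO cells gave -1.25 ± 0.27, with an adjusted p of 0.111 and of 1.49e-13 with the block. With both, Ppfia2 stood at 19.0% of the WT-Veh mean (-2.37 ± 0.27, adjusted p 1.09e-05).

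**Figure D2:**
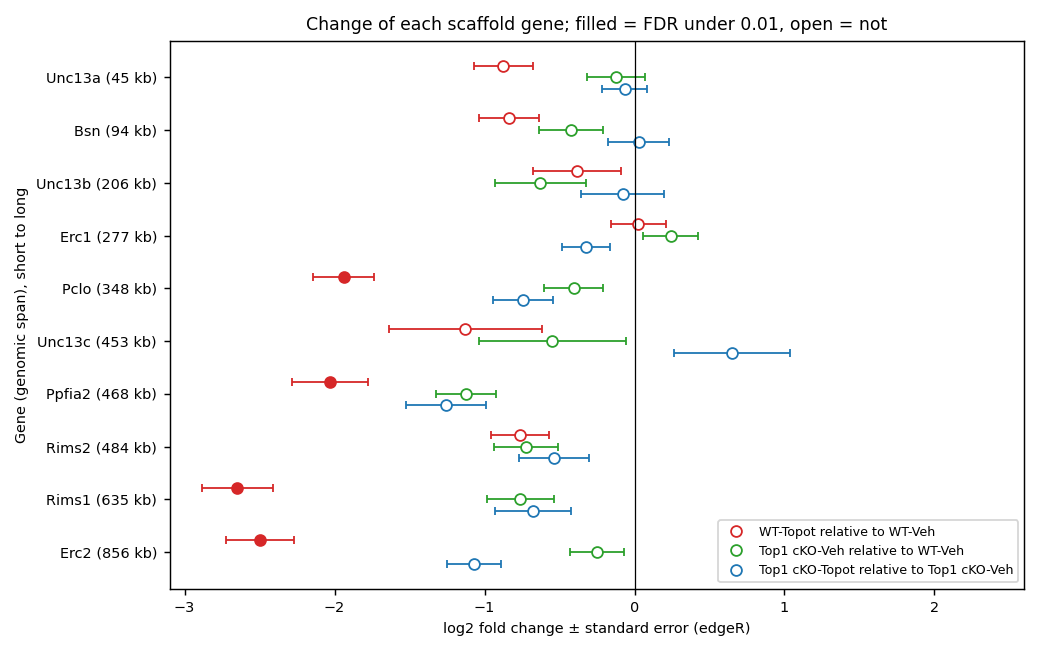
Log2 fold change of the 10 genes with its standard error, ordered from the shortest to the longest gene, for topotecan in WT cells (red), deletion of Top1 (green) and topotecan in Top1 cKO cells (blue). Filled points, all red, passed an FDR of 0.01 without the block: Pclo at -1.94, Ppfia2 at -2.03, Rims1 at -2.65 and Erc2 at -2.50.

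These falls were set beside those of other genes of like length. Without the block, 53.0% of the 466 genes that span over 300 kb were called lower in WT-Topot relative to WT-Veh. Of the 6 scaffold genes of that length, 4 were. The median log2 fold change was -1.42 over the 466 genes and -1.98 over the 6 scaffold genes, a difference given as a description. Rims1, Erc2, Pclo and Ppfia2 thus sat among many long genes that fell. Rims2, also over 300 kb, differed by -0.76 ± 0.19 and was not called without the block. With the block Rims2 was called as well, so that 5 of the 6 were, where 70.8% of the 466 long genes were called lower. Of the 1551 genes of 100 to 300 kb, 7.29% were called lower without the block and 22.8% with it, and neither Erc1 nor Unc13b was in either fit. Of the 11322 genes of up to 100 kb, 1.05% were called lower without the block and 4.35% with it. Both scaffold genes of that length, Bsn and Unc13a, were called lower with the block and neither without it, at -0.84 ± 0.20 and -0.88 ± 0.20, where the median of their length class was 0.08.

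In the other comparisons the scaffold genes over 300 kb were set beside the 466 genes of that length in the same way. With the block, 4 of the 6 were called lower by deletion alone, against 29.8% of long genes, and 4 of the 6 by topotecan in Top1 cKO cells, against 28.5%. Without the block, 5 of the 6 were called lower in Top1 cKO-Topot relative to WT-Veh, against 27.9%, and 3 of the 6 between WT-Topot and Top1 cKO-Veh, lower in WT-Topot, against 34.5%. Erc2 was the 1 of the 6 called higher in Top1 cKO-Topot relative to WT-Topot, against 19.1%, and 4 of the 6 were called with the block, against 35.4%. With only 6 genes these shares are a description, and their difference from those of long genes was not tested.

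**Figure D3:**
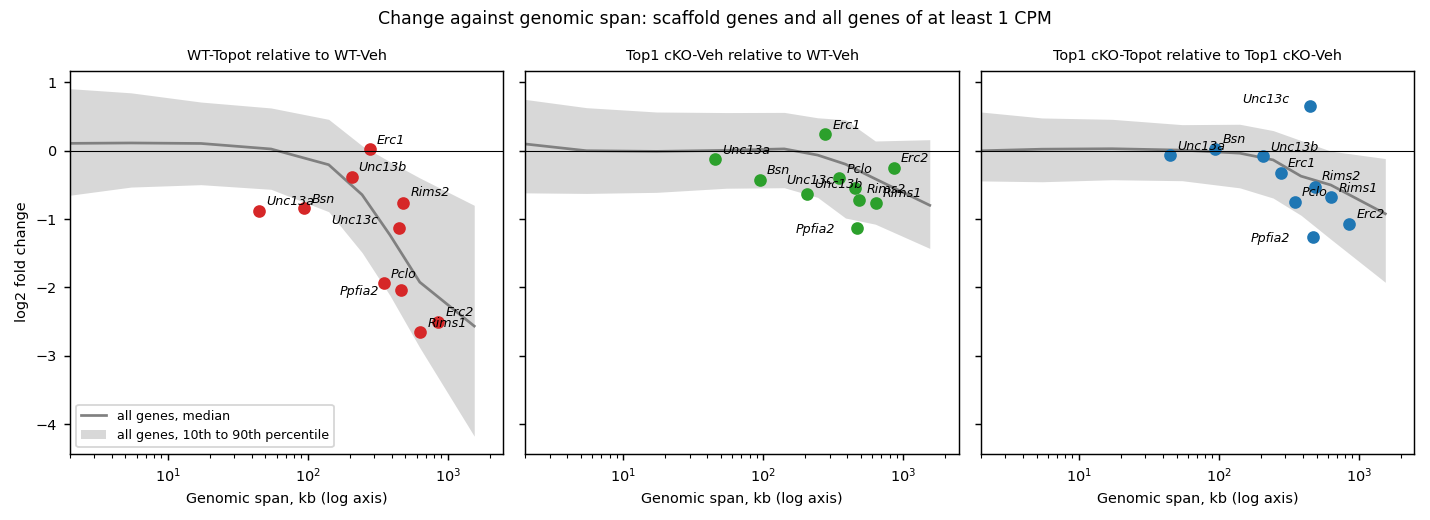
Log2 fold change against genomic span (log axis) for the 10 scaffold genes (points) in 3 comparisons, with the median (line) and the 10th to 90th percentiles (band) of all genes averaging 1 CPM or more in bins of span. With topotecan in WT cells Erc1 lies above the median of genes of 200 to 300 kb (-0.64), while Bsn and Unc13a lie below that of genes of 30 to 100 kb (0.02).

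The effect of topotecan depended on the genotype for Rims1. In the fit of all 12 libraries the effect in Top1 cKO cells minus that in WT cells was 1.96 ± 0.34 on the log2 scale, with an adjusted p of 0.00447, so that topotecan lowered Rims1 less where Top1 had been deleted. It was the only call among the 10 genes, where 0.398% of all genes were called higher. The call was lost when WT-Veh replicate 2, WT-Topot replicate 1 or Top1 cKO-Topot replicate 3 was left out, with adjusted p values of 0.0123, 0.0133 and 0.0101. With the block, 5 of 10 were called (Rims1, Bsn, Pclo, Erc2 and Unc13a), where 2.44% of all genes were. The differences were 1.42 ± 0.28 for Erc2 (adjusted p 0.0118, 1.05e-06 with the block) and 1.19 ± 0.31 for Pclo (adjusted p 0.0648, 8.05e-08 with the block). Those of Bsn and Unc13a were 0.86 ± 0.32 and 0.80 ± 0.24, with adjusted p values of 0.33 and 0.149, and of 2.08e-06 and 4.19e-04 with the block. For Ppfia2 it was 0.76 ± 0.40 and for Rims2 0.22 ± 0.29, with adjusted p values of 0.694 and 1. Of genes over 300 kb, 9.87% were called without and 40.3% with the block, beside 1 and 3 of the 6 scaffold genes of that length. The median difference was 1.30 over these 6 genes, beside 0.97 over all genes of more than 300 kb, and 0.83 over the 10 scaffold genes, beside 0 over all genes.

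**Figure D4:**
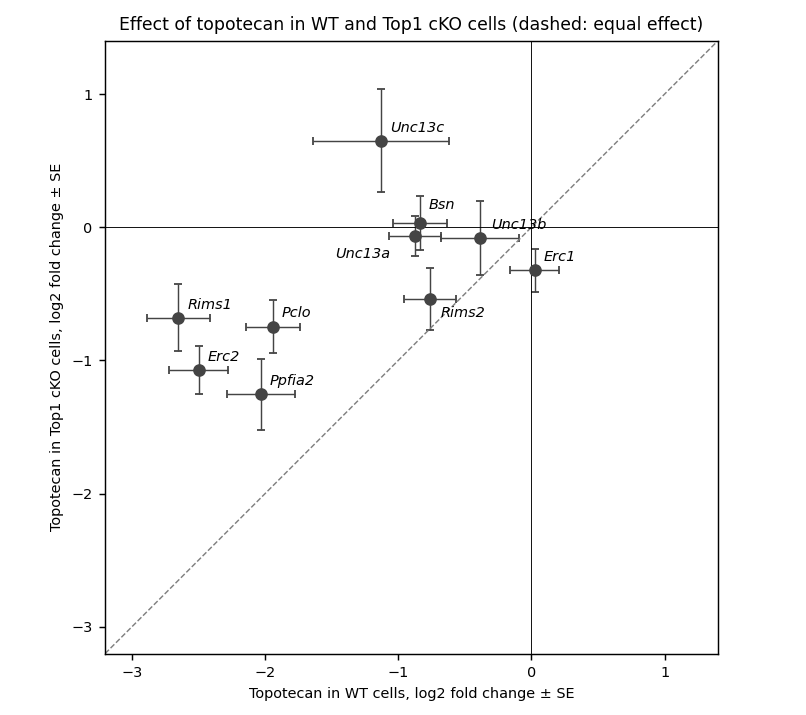
Log2 fold change with topotecan in WT cells (horizontal axis) against that in Top1 cKO cells (vertical axis), with standard errors, for the 10 scaffold genes; the dashed line marks an equal effect. All genes but Erc1 lie above the line, and Rims1 lies at -2.65 in WT and -0.68 in Top1 cKO cells.

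Topotecan in Top1 cKO cells, relative to Top1 cKO-Veh, called 0 of the 10 genes in edgeR without the block, where 0.00837% of all genes were called lower, and 5 were lower at an unadjusted p under 0.05 (2.62% of all genes). DESeq2 called 2 (Erc2 and Ppfia2; 0.528% of the genes it adjusted), and edgeR with the block called 4 (Rims1, Pclo, Erc2 and Ppfia2), where 1.74% of all genes were. Erc2 lay lower in all 3 replicate numbers, by 1.05 to 1.12 on the log2 scale, and Ppfia2 by 0.72 to 2.11. The libraries of Rims1, Erc1, Erc2 and Ppfia2 did not overlap between these 2 groups, where 6.56% of genes averaging 1 CPM or more were lower without overlap. Of such genes that span over 300 kb, 36.5% were.

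Among the topotecan-treated cells, 1 scaffold transcript was higher with the deletion. Erc2 was 2.25-fold higher in Top1 cKO-Topot than in WT-Topot (1.17 ± 0.22 on the log2 scale, adjusted p 0.00169), where 1.46% of all genes were called higher. Without Top1 cKO-Topot replicate 2 its adjusted p was 0.0122 and 0 of the 10 genes were called. With the block, 6 of 10 were called higher (Rims1, Bsn, Pclo, Erc2, Unc13a and Unc13c), where 4.6% of all genes were. Rims1 was 2.29-fold and Pclo 1.72-fold higher, with adjusted p values of 0.0107 and 0.0199 without the block, and of 7.94e-05 and 2.75e-07 with it. Unc13a was 1.59-fold higher, with an adjusted p of 0.0116 without and 2.17e-06 with the block. Ppfia2 and Rims2 had log2 fold changes of -0.36 ± 0.29 and -0.51 ± 0.21 and were not called.

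Relative to WT-Veh, the cells with both deletion and topotecan had 5 of the 10 genes called lower, where 1.21% of all genes were: Rims1, Rims2, Pclo, Erc2 and Ppfia2. Rims1 and Erc2 were 2.69- and 2.48-fold lower, with adjusted p values of 7.33e-04 and 2.6e-04. With the block Bsn was called as well (-0.38 ± 0.19, adjusted p 0.398 without and 0.00941 with it), where 4.02% of all genes were called lower. Compared with Top1 cKO-Veh, WT-Topot had 4 of the 10 lower (Rims1, Pclo, Erc2 and Unc13a), where 1.23% of all genes were. Erc2 was 4.77-fold and Pclo 2.91-fold lower, with adjusted p values of 1.66e-05 and 5.64e-04. With the block 6 of 10 were called lower, where 4.8% of all genes were: Bsn (adjusted p 0.49 without and 3.13e-04 with it) and Ppfia2 (adjusted p 0.0505 and 2.18e-05) were added.

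To compare related scaffold genes with each other, the ratios of their transcripts were taken within each library, on log2 counts plus 0.5. The ratio of Erc2 to Erc1 was 0.01, 0.22 and 0.55 in the WT-Veh libraries and -2.59, -1.89 and -2.43 in WT-Topot. It was -0.11, -0.23 and -0.38 in Top1 cKO-Veh and -0.93, -0.99 and -1.03 in Top1 cKO-Topot. The 4 groups did not overlap. Erc1 counts exceeded Erc2 counts in all 9 libraries outside WT-Veh and in none of WT-Veh, where replicate 1 had 591 and 597. These counts are not scaled by exon length. Per kilobase of merged exon, mean Erc2 was above Erc1 in both vehicle groups (26.7 against 20.8 CPM per kb in Top1 cKO-Veh) and below it in both topotecan groups. The differences of the log2 ratio were -2.57 (WT-Topot minus WT-Veh), -0.50 (Top1 cKO-Veh minus WT-Veh) and -0.74 (Top1 cKO-Topot minus Top1 cKO-Veh). Each had an exact two-sided permutation p of 0.1, the smallest that 3 against 3 libraries allow, and an adjusted p of 0.171 over the 12 ratio comparisons made, so none could pass 0.05.

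The ratio of Pclo to Bsn went from a mean of -0.64 ± 0.16 (SD, n = 3) in WT-Veh to -1.76 ± 0.31 in WT-Topot, without overlap. It was -0.63 ± 0.08 in Top1 cKO-Veh, which overlapped WT-Veh, and -1.41 ± 0.29 in Top1 cKO-Topot. The ratio of Rims1 to Rims2 was -0.36 ± 0.12 in WT-Veh and -2.23 ± 0.36 in WT-Topot, without overlap. In Top1 cKO-Veh it was -0.40 ± 0.48 and in Top1 cKO-Topot -0.53 ± 0.61, and both overlapped WT-Veh. The ratio of Unc13b to Unc13a was -3.62 ± 0.15 in WT-Veh and -3.12 ± 0.37 in WT-Topot, which overlapped. With the deletion it was -4.12 ± 0.31 under vehicle and -4.12 ± 0.13 under topotecan. Only the difference between Top1 cKO-Veh and WT-Veh had no overlap among the 3 comparisons of this ratio.

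**Figure D5:**
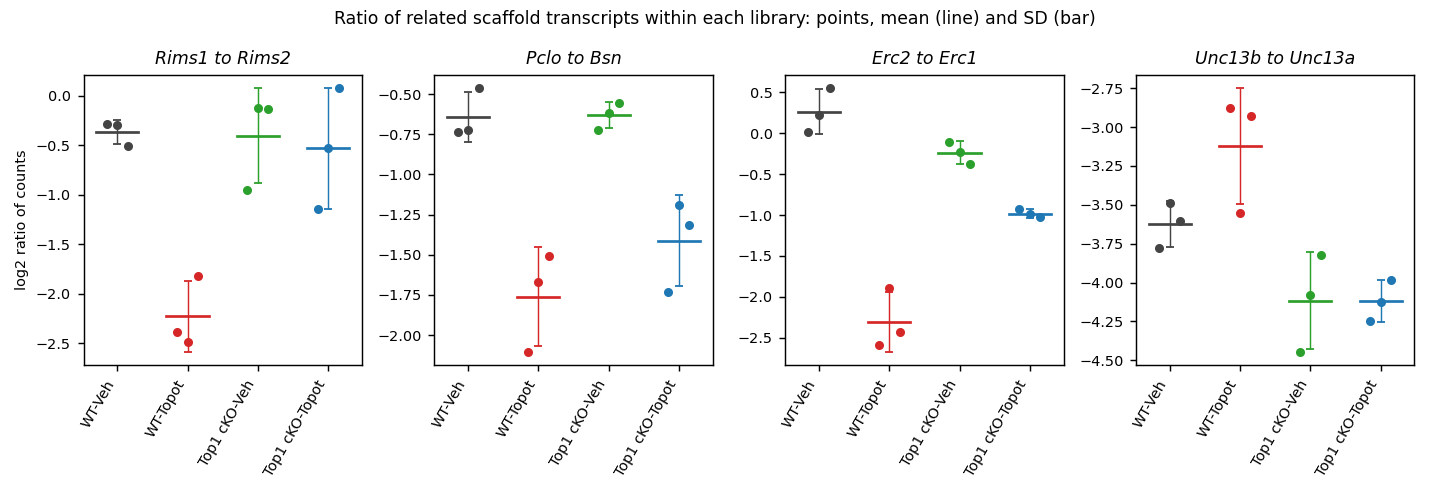
Log2 ratio of the counts of related scaffold genes within each library (points), with the mean (line) and SD (bar) of each group of 3 libraries. Erc2 to Erc1 separates all 4 groups, and Rims1 to Rims2 sets WT-Topot, at -2.49 to -1.82, apart from the other 9 libraries.

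The 29 partner genes of the scaffold were listed by family and binding partner, with earlier results of these data known. In WT-Topot relative to WT-Veh 6 of 29 were called lower and none higher, where 2.04% of all genes were called lower and 0.682% higher. Cacna1a, the pore of the P/Q-type calcium channel, fell by 1.83 on the log2 scale, from 163 to 45.6 CPM on average (adjusted p 5.84e-05). Rab3c, a vesicle GTPase that RIM binds, fell by 1.59, from 1713 to 569 CPM (adjusted p 1.99e-05). The adaptors Apba1, Apba2 and Cask, which link active zone proteins to adhesion molecules and channels, fell by 1.43, 1.42 and 1.36 (adjusted p 3.56e-05, 6.71e-05 and 9.2e-04). These 5 genes are themselves long: Apba1, Rab3c, Cacna1a and Apba2 span 191, 227, 252 and 252 kb, in the class of which 7.29% were called lower, and Cask spans 334 kb, in the class of which 53.0% were. The sixth, Git1, a scaffold of 14.2 kb that binds liprins, had an adjusted p of 0.00298, and of 0.025 without WT-Topot replicate 3. None of the other 8 genes of the RIM, Munc13 and liprin families was called in either direction in this comparison. With the block 7 of the 29 were called lower, where 5.0% of all genes were, and Bzrap1, which encodes a RIM-binding protein, was called higher, where 3.24% of all genes were.

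Deletion alone called 0 of the 29 partners without the block in edgeR, where 0.126% of all genes were called lower. With the block 6 were called lower and 1 higher, where 2.95% and 2.6% of all genes were. Topotecan in Top1 cKO cells likewise called 0 of 29 without the block, and 2 lower and 2 higher with it, where 1.74% and 0.858% of all genes were. WT-Topot had 6 partners lower than Top1 cKO-Veh without the block (1.23% of all genes), of which 4 were lost in at least 1 alternative fit, and 7 lower and 1 higher with it, where 4.8% and 2.93% of all genes were.

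Between the topotecan-treated groups, 5 of the 29 partners rose in Top1 cKO-Topot relative to WT-Topot and 1 fell, where 1.46% of all genes were called higher and 1.03% lower. Cask, Rph3a, Apba2, Rab3c and Apba1 were higher by 1.20, 1.00, 0.86, 0.81 and 0.85 on the log2 scale. Of genes of 100 to 300 kb, the class of Apba1, Apba2 and Rab3c, 7.29% were called higher in this comparison, and of those over 300 kb, the class of Cask, 19.1%. Apba1 and Apba2 lost the call without WT-Topot replicate 1 (adjusted p 0.0117 and 0.0208), and Rab3c without Top1 cKO-Topot replicate 1 (0.0159) and under the filter on low counts (0.0112). Rab3d, another vesicle GTPase, fell by 1.28 (adjusted p 6.84e-04). With the block 10 of the 29 were called higher and 1 lower, where 4.6% and 4.08% of all genes were.

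The interaction was called for 3 partners, where 0.398% of all genes were called higher: Rab3c (1.55 ± 0.27), Git1 (1.54 ± 0.27) and Apba1 (1.36 ± 0.22), with adjusted p values of 0.00517, 0.00566 and 0.0033. Each of the 3 lost the call in some fit that left out 1 library. Apba1 lost it without WT-Topot replicate 1 (0.012) or Top1 cKO-Topot replicate 1 (0.0113). Rab3c lost it without WT-Veh replicate 2, WT-Topot replicate 1 or 3, or Top1 cKO-Topot replicate 1 (adjusted p 0.012 to 0.0155). Git1 lost it without WT-Veh replicate 2, WT-Topot replicate 3, Top1 cKO-Veh replicate 2, or Top1 cKO-Topot replicate 1 or 3 (adjusted p 0.0116 to 0.0166). The filter on low counts also ended the calls of Rab3c and Git1 (0.0113 and 0.0104). With the block 7 of the 29 were called, where 2.44% of all genes were.

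Relative to WT-Veh, the cells with both deletion and topotecan had Cacna1a lower, with a log2 fold change of -1.26 ± 0.24, and Bzrap1 higher, with 1.19 ± 0.24 (adjusted p 0.00281 and 0.00485), where 1.21% of all genes were called lower and 0.473% higher. Without WT-Veh replicate 2 their adjusted p values were 0.0236 and 0.0237, without Top1 cKO-Topot replicate 2 they were 0.0132 and 0.0803, and under the filter on low counts 0.0144 and 0.0243, so that both calls were lost in each of these fits. With the block 6 of the 29 were called lower and 4 higher, where 4.02% and 3.34% of all genes were.

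Across the 12 libraries, which share the 4 groups, the log2(CPM + 1) values of Pclo and Erc2 had a Pearson r of 0.970, Rims1 and Erc2 of 0.929 and Rims1 and Pclo of 0.925. Erc1 and Unc13c had the lowest r among the 10 genes, at -0.62. Over all genes averaging 1 CPM or more, the most alike to Pclo was Cdh13 (r = 0.990), to Erc2 Negr1 (r = 0.990), to Rims1 Nell1 (r = 0.984) and to Ppfia2 Stau2 (r = 0.974). The closest to Unc13a was Atxn1 (r = 0.966), to Bsn Mfhas1 (r = 0.962), to Rims2 Dpp8 (r = 0.962) and to Unc13c Pamr1 (r = 0.946). The lowest best matches were those of Erc1 with Sec14l2 (r = 0.892) and Unc13b with Crhr2 (r = 0.888). The spans of these matches were 1041 kb for Cdh13, 890 kb for Nell1, 755 kb for Negr1, 410 kb for Atxn1 and 291 kb for Stau2, and 26.4 to 93.0 kb for the other 5, among them the matches of the long genes Rims2 (Dpp8, 50.2 kb) and Unc13c (Pamr1, 93.0 kb).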

How the data were processed

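Polyadenylated RNA of 12 samples (4 groups of 3) was sequenced as paired reads from TruSeq libraries. The authors cleaned the reads with TagDust, used TopHat for alignment to mm9, dropped reads of rRNA genes and counted the rest over RefSeq exons; the deposited values are raw counts summed by gene symbol. The counting program, its use of strand, the RefSeq release and the versions are not given in the sources used here. From the deposited counts, each pair of groups was fitted on its 6 libraries by the quasi-likelihood test of edgeR 4.0.16 in R 4.3.3, with TMM scaling and no filter on low counts, and the interaction on all 12. P-values were adjusted by Benjamini-Hochberg over 23893 genes, at an FDR of 0.01, and the standard error is the log2 fold change divided by the root of the F statistic. Alternatives were DESeq2 size factors (RLE), the filterByExpr filter, the Wald test of DESeq2 1.42.0, the replicate number as a block, and leaving out each library. Ratios were compared by exact two-sided permutation tests over libraries.

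The labels number the replicates 1 to 3 in each group without saying what a number stands for. Over genes averaging 1 CPM or more, the deviations from the group means correlated at 0.261 to 0.485 between the 18 same-numbered pairs of libraries. The numbers were therefore taken to pair the libraries in the fits with the block and in the differences within a replicate number. The main fits, without the block, and the permutation tests of the ratios did not use this pairing. Between the 36 pairs of unlike number the correlations were -0.384 to -0.0494. Centring on the group means brings such negative values with it, so they are no separate evidence. Replicates differed by a chi-square of 6.05 to 10.1 per gene, where sampling noise gives 1, so no pair agreed within sampling noise and each library was counted as 1 sample. Nothing in the labels says that replicates came from separate cultures, although the study's figure legends give n = 3 cultures for the RNA-seq values. The p-values rest on the spread between these libraries, with the dispersion of each gene drawn towards that of other genes. With the block, a comparison of 2 groups fits more terms to the same 6 libraries. The very small adjusted p-values with the block thus lean on dispersion shared over genes, not on the 3 pairs of libraries alone. In the library of lowest depth, WT-Veh replicate 3 with 1730164 counts, the member with the fewest counts was Unc13b, with 42. The lowest count of any member in any library was 10, for Unc13c. Tests were run first on simulated counts with known changes. Gene spans came from GENCODE vM1 (21013 symbols matched, 1056 by a synonym, 1824 not); the 300 kb boundary was set after the data were seen. The 10 genes, the partner lists and the markers were chosen with earlier results of these data known. The text names all 10 genes, Top1, up to 5 called partner genes per comparison by largest change, and the 1 most alike gene of each member; Git1 in WT-Topot relative to WT-Veh was named after its values were seen.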

Additional observations from a re-analysis of the deposited data

Results flagged for a closer look

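The effect of topotecan on Rims1 differed between the genotypes: the log2 fold change in Top1 cKO cells minus that in WT cells was 1.96, by the interaction term of edgeR's quasi-likelihood test with an adjusted p of 0.00447. All 3 replicate numbers showed a smaller fall in Top1 cKO cells (-0.73, -0.95 and -0.28 on the log2 scale) than in WT cells (-2.59, -2.86 and -2.22). Leaving out WT-Veh replicate 2, WT-Topot replicate 1 or Top1 cKO-Topot replicate 3 ended the call. A difference in this direction was common among long genes, with a median of 0.97 over the genes of more than 300 kb.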

How the results depend on the processing

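The calls of Rims1, Pclo, Erc2 and Ppfia2 in WT-Topot relative to WT-Veh were kept in all 10 alternative fits. The number of the 10 genes called moved by over 1.5 times as follows; the cause was not tested. For genes lower in WT-Topot relative to WT-Veh (4), DESeq2 gave 7 and the replicate block 7. In Top1 cKO-Veh relative to WT-Veh (0 lower), DESeq2 gave 1, the block 5 and fits leaving out 1 library 0 to 1. In Top1 cKO-Topot relative to Top1 cKO-Veh (0 lower), DESeq2 gave 2, the block 4 and fits leaving out 1 library 0 to 3. For genes higher in Top1 cKO-Topot relative to WT-Topot (1), RLE scaling gave 3, DESeq2 4, the block 6 and fits leaving out 1 library 0 to 3. In the interaction (1 higher), RLE gave 2, DESeq2 3, the block 5 and fits leaving out 1 library 0 to 2. The block changed no call of the 10 genes other than those named in the report. Among the 836 fold changes of the 10 genes and Top1 recomputed, 739 kept their direction and side of the threshold, 61 passed it newly, 12 no longer passed and 24 changed sign.

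All sign changes were of values that passed no threshold. Erc1 in WT-Topot relative to WT-Veh was -0.000398 under filterByExpr and -0.095 to 0.15 when 1 library was left out, and Top1 there -0.12 to 0.15. When 1 library was left out, the ranges in Top1 cKO-Veh relative to WT-Veh were -0.24 to 0.13 for Unc13a and -0.95 to 0.25 for Unc13c. In Top1 cKO-Topot relative to Top1 cKO-Veh they were -0.18 to 0.19 for Bsn, -0.22 to 0.036 for Unc13b and -0.23 to 0.15 for Top1. In Top1 cKO-Topot relative to WT-Veh they were -0.20 to 0.053 for Erc1, -0.30 to 0.076 for Unc13a and -0.29 to 0.90 for Unc13c. For Rims2 between WT-Topot and Top1 cKO-Veh the range was -0.21 to 0.089, and in the interaction it was -0.061 to 0.49 for Unc13b and -0.25 to 0.15 for Top1. Counts were few for Unc13c (10 to 48 per library), for Unc13b (38 to 95) and, in WT-Topot, for Rims1 (33 to 38), and 3 libraries per group limit every ratio test.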
